A study of Mus musculus with 8 samples.

Results

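Experiment 2 of this RNA sequencing study compared bone marrow derived macrophages (BMDMs) of Mkl1 knockout (KO) mice with those of wild-type (WT) mice, and its 4 libraries, out of 8 in the whole series, were taken by their labels as WT libraries 3 and 4 and KO libraries 7 and 8. The WT mice were Mkl1+/+, Apoe-/- and the KO mice Mkl1-/-, Apoe-/-, so both groups lacked Apoe and neither was wild type at that locus. All were male, 6 months old, of C57BL/6J background, and had received angiotensin II (Ang II) by osmotic minipump for 7 days, at a dose that the labels print both as 1 mg/kg/min and as 1.44 mg/kg/day, which are not equal. Bone marrow cells were then grown for 7 days in differentiation medium before total RNA was taken. The deletion of Mkl1 was global, and the WT mice were littermates or offspring of sibling matings. The study ran its libraries as 2 batches, called experiments 1 and 2 here, and compared genotypes within each. With 2 libraries against 2, an exact permutation test of a single gene cannot go below a two-sided p of 0.333, so only tests fitted across all genes are given. The labels do not say whether the libraries of a genotype came from separate mice or cultures, and the p-values measure only the spread between these libraries.

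MKL1, also called MRTF-A, is a coactivator of serum response factor (SRF). It is held in the cytoplasm by monomeric actin, and when actin polymerizes it enters the nucleus, binds SRF and raises transcription of genes for the cytoskeleton and for adhesion. In macrophages the inflammatory program runs mainly through other factors: NF-κB, which is freed from its inhibitors after Toll-like receptors or cytokine receptors are engaged, and the STAT and IRF factors that act downstream of interferons.

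The deposited counts summed to between 35083584 and 41331939 per library. Of 53735 genes listed, 14567 were tested, and they held 99.9% of the counts of every library. Replicate libraries differed by a standard deviation of 0.506 (WT) and 0.503 (KO) in log2 CPM over genes, where CPM is the count relative to the scaled library size. Between the group means of experiment 2, each of 2 libraries, the standard deviation over 14418 genes was 0.863, and 2112 genes differed by more than 2-fold. Means of 2 libraries vary less than single libraries, so the distances between groups are not on one scale with the replicate values. The KO libraries of experiment 2 lay closer to the WT libraries of experiment 1 than to their own WT, with a standard deviation of 0.406 and 395 genes beyond 2-fold. The WT groups of both experiments differed by 0.841. Why the groups lie in this order was not tested. The groups are used here as the labels give them. Whether libraries were exchanged between groups was not tested. The level of Mkl1, given next, was lower in the libraries labelled KO. Rpl3-ps1 and Kif21a, picked after their values were seen and given at the end, were higher in the libraries labelled KO of both experiments.

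The targeted gene Mkl1 (chr15:81012281-81190757, minus strand, GRCm38) had 26.2 and 29.0 CPM in the WT and 14.4 and 10.3 CPM in the KO libraries. Both KO libraries lay below both WT libraries, and the transcript was reduced but not absent, at a log2 fold change of -1.16 (SE 0.19, adjusted p = 0.0228, from edgeR's quasi-likelihood test after Benjamini-Hochberg adjustment, as for every adjusted p below). The counts cover the whole gene and do not separate exons, so they cannot show whether the deleted exons are read. Without WT library 3, WT library 4 or KO library 8 the call was lost, with adjusted p up to 0.0755. Apoe, deleted in all mice, had 3.41 and 2.76 CPM in WT and 11.2 and 4.41 CPM in KO.

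All 10 macrophage markers examined were expressed, with a summed level of 19727 and 15490.4 CPM in WT and 25409.7 and 18759.5 CPM in KO. Adgre1, the gene of F4/80, had 2621 and 2667 CPM in WT and 4795 and 5175 CPM in KO, and rose by 1.89-fold (adjusted p = 0.0254), a call lost with any 1 library left out (largest adjusted p 0.105). Itgam also rose, whereas Csf1r, Cd14 and Spi1 fell. Cd68 had 1344 and 1395 CPM in WT and 1159 and 783 CPM in KO and did not pass the test (adjusted p = 0.184). Every library thus expressed the markers of the labelled cell type. Markers of other cells were low: the 9 fibroblast markers summed to 9.09 and 11.8 CPM in WT and 12 and 2.21 CPM in KO, the 12 granulocyte markers to 6.83 and 8.86 against 8.64 and 2.43 CPM, and the 7 T and NK cell markers to 2.83 and 2.74 against 1.57 and 2.04 CPM. The erythroid markers reached at most 0.195 CPM in a library. Monocyte markers summed to 65.3 and 17 CPM in WT and 14.2 and 11.2 CPM in KO, and the endothelial list, in which Kdr and Cdh5 fell and Pecam1 rose, to 208 and 117 against 106 and 69.5 CPM. The osteoclast list, with Dcstamp and Atp6v0d2 lower and Acp5 higher in KO, summed to 39.2 and 125 against 22.6 and 22.2 CPM. In the megakaryocyte list, at 67.1 and 94.2 CPM in WT and 24.2 and 10.5 CPM in KO, Pf4 fell. The calls of the markers named in this paragraph were all lost without KO library 8. The part of such cells in the results that follow was not tested, and in bulk RNA fewer cells of a type and less RNA per cell cannot be told apart.

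Genome wide, 1250 genes were lower and 1125 were higher in KO than in WT at an adjusted p under 0.05, which is 8.58% and 7.72% of the genes tested. A change of at least 2-fold was reached by 805 lower and 543 higher genes, and one of at least 4-fold by 333 lower and 181 higher genes. The median log2 fold change was -1.29 among the lower and 0.97 among the higher genes, against 0.01 over all genes tested. In every called gene both KO libraries lay on the same side of both WT libraries, as they did in 9569 of the 14567 genes tested (65.7%). The numbers rested on each library: without WT library 3 the test called 513 lower and 335 higher genes, without WT library 4 865 and 564, without KO library 7 487 and 342, and without KO library 8 114 and 124. Of 115 called genes chosen for naming, 37 kept their call in all 4 of these fits, while 72 lost it without KO library 8, 41 without KO library 7, 34 without WT library 3 and 24 without WT library 4. The same fits were read for the other called genes named below, and a largest adjusted p is the largest over the 4 fits. In the other fits, with all libraries, 89 of the 115 were called each time and 26 lost their call at least once: 24 of these without the filter on low counts, and 6 with limma-voom (Il6, H2-Aa, H2-Eb1, Raver2, Grb10 and Nhs). These other called examples were lost without that filter: Actg1, Atp6v0d2, Cx3cr1, Cxcl11, H2-Ab1, Kdr, Mx1, Nos2, Pf4, Psmb9, Rsad2, Tagln and Trib3. Atp6v0d2, H2-Ab1 and Kdr were lost with limma-voom too. Kdr was also lost with RLE scaling, at 10 counts in every library and with genes filtered over 8 libraries. Among the gene lists described below, the 16 with under 9 calls in each direction held 85 calls in all, and 53 without WT library 3, 62 without WT library 4, 42 without KO library 7 and 19 without KO library 8. For the other lists these counts stand beside the reported one. In the lists of p53, phagocytosis, LXR, respiratory chain and sterol genes, the shares of members called in each direction were near or below those of all genes, 8.58% lower and 7.72% higher, and the values given for their members are no result about the list.

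**Figure D1:**
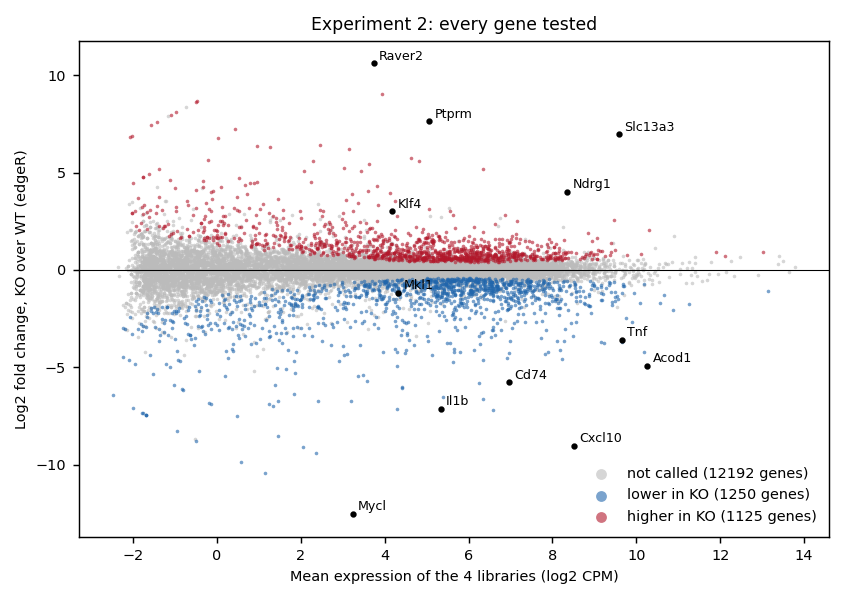
Each point is 1 of the 14567 genes tested in experiment 2, with its mean log2 CPM over the 4 libraries on the horizontal axis and its edgeR log2 fold change, KO over WT, on the vertical axis. Blue points are the 1250 genes lower and red points the 1125 genes that were higher, both past the threshold of 0.05, and grey points did not pass. Black labelled points are named genes, from Mycl and Cxcl10 (-9.02) at the bottom to Ptprm (7.64) and Raver2 at the top, and large changes in both directions include abundant genes such as Tnf and Slc13a3.

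Among genes whose mean log2 CPM over the libraries reached 3, the 12 that fell most were led by Mycl and Cxcl10 and included Il1b. Mycl, a MYC family transcription factor, had 18.6 and 19.2 CPM in WT and no count in either KO library, so that it was at least 265-fold lower against a floor of 3 counts per library (adjusted p = 0.00357). Cxcl10, an interferon-induced chemokine that attracts T cells, had 1076 and 389.7 CPM in WT and 1.92 and 0.896 CPM in KO (-9.02 on the log2 scale, SE 0.79, adjusted p = 0.00818). For Il1b, the precursor of interleukin-1β, the values were 119 and 40.9 CPM and 0.888 and 0.259 CPM (-7.12, SE 0.82, adjusted p = 0.0136). In each of these genes the groups were far apart, and within WT, library 3 was above library 4 by more than 2-fold for Cxcl10 and Il1b. The guanylate-binding protein gene Gbp5 (-7.19), the endothelial lipase gene Lipg (-7.15), Ciita (-6.75), Ifi205 (-6.63), H2-Aa (-6.51), H2-Eb1 (-6.09), Ifit1bl1 (-6.03), Cxcl1 (-5.80) and Cd74 (-5.77) completed the 12 such genes that fell most, with adjusted p between 0.00357 and 0.0293. The calls of Cxcl10, Il1b, Lipg, H2-Aa, H2-Eb1, Ifit1bl1 and Cd74 were lost without KO library 8, and all of these but Cxcl10 also without KO library 7 (largest adjusted p from 0.0647 to 0.16). With limma-voom H2-Aa and H2-Eb1 did not pass, and without the filter on low counts Il1b, Cxcl10, Gbp5, Lipg, H2-Aa, H2-Eb1, Ifit1bl1 and Cd74 did not.

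The 12 genes above that level that rose most were led by Raver2 and Ptprm. Raver2, which encodes an RNA-binding protein, had 1 and 0 counts in WT against 442 and 1796 counts in KO (adjusted p = 0.0159). Ptprm, a receptor tyrosine phosphatase of cell contacts, had 0.295 and 0.366 CPM in WT and 46.9 and 85.9 CPM in KO (7.64, SE 0.45, adjusted p = 0.00468). Slc13a3, a transporter of dicarboxylates such as succinate, was the most abundant of them, with 14.4 and 10 CPM in WT and 952 and 2101 CPM in KO (6.96, SE 0.54, adjusted p = 0.00671). In all 3 genes KO library 8 was the highest, at more than 1.5 times KO library 7. Cd55, a brake on complement activation, had 6.65 and 1.95 CPM in WT and 151 and 167 CPM in KO, and Ndrg1, a stress-induced gene, 28.4 and 48.0 against 406 and 826 CPM. The log2 fold changes were 5.20 and 4.01. Grb10, an adaptor that dampens insulin receptor signaling, rose by 5.75 on the log2 scale, the aspartic protease gene Ctse by 5.59, Nhs by 5.23, Fcrl5 by 5.06, Morc4 by 4.30, F5, the gene of coagulation factor V, by 4.03, and Lancl3 by 3.94. Ctse went the other way within KO, with 79.8 and 30.9 CPM in libraries 7 and 8. Of the 12 genes, only Ptprm, Slc13a3 and Fcrl5 kept an adjusted p under 0.05 in all 4 fits without 1 library, and the largest adjusted p of the others ran from 0.0574 to 0.196. Raver2, Grb10 and Nhs did not pass with limma-voom, and these 3, Ctse, Cd55, Morc4, Ndrg1 and Lancl3 did not without the filter.

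**Figure D2:**
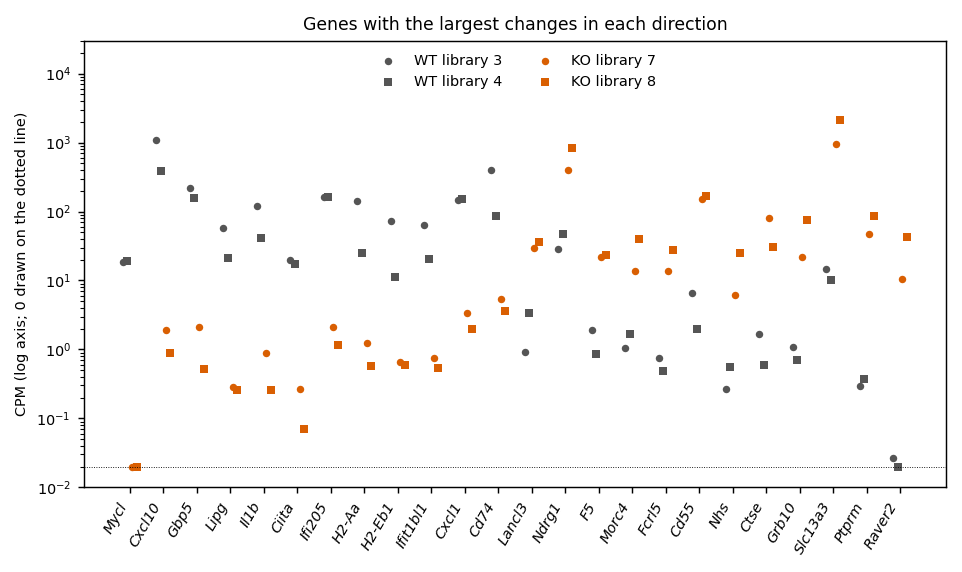
For the 12 genes that fell most and the 12 that rose most among those whose mean log2 CPM reached 3, each symbol is the level of 1 library in CPM on a log axis, grey for WT and orange for KO, circles for libraries 3 and 7 and squares for libraries 4 and 8; a value of 0 is drawn on the dotted line. No KO symbol lies within the range of the WT symbols of its gene, and Mycl has no count in KO while Raver2 has 1 count in all of WT.

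Most secreted inflammatory mediators fell. Of 46 cytokine and chemokine genes, 39 were tested, of which 24 fell (61.5%, against 8.58% of all genes), 1 rose and 14 did not pass the test, with a median log2 fold change of -2.12 against 0.01 for all genes. With WT library 3, WT library 4, KO library 7 or KO library 8 left out, 21, 24, 16 or 10 members were lower, and the same order of libraries is kept for the lists that follow. Tnf, the gene of tumor necrosis factor, had 1380.1 and 1598 CPM in WT and 126 and 121 CPM in KO, a 12-fold fall (SE of the log2 value 0.16, adjusted p = 0.00357). The neutrophil chemokine gene Cxcl2 had 535 and 619 CPM in WT and 24.6 and 24.3 CPM in KO (23.6-fold lower, adjusted p = 0.00321), and its relative Cxcl1 148 and 152 against 3.41 and 1.98 CPM (55.8-fold lower, adjusted p = 0.00365). The replicates of Tnf and Cxcl2 were close together in both groups, and all 3 genes kept their call with any 1 library left out. Csf1, the growth factor of macrophages themselves, fell from 94.2 and 95.9 CPM to 4.22 and 3.04 CPM (26.1-fold, adjusted p = 0.00357). Il6 was lower by 18.3-fold, at 11.3 and 2.68 CPM in WT and 0.288 and 0.472 CPM in KO (adjusted p = 0.0355), a call that was lost without KO library 7 or 8 (largest adjusted p 0.157), with limma-voom and without the filter. Ccl22 had 187 and 136 counts in WT and none in KO, at least 62.0-fold lower (adjusted p = 0.00675). The calls of Csf1 and Ccl22 also held with any 1 library left out.

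Several mediators of T cell help and interferon response had almost no counts in KO. Il12b, a subunit of interleukin-12 and interleukin-23, had 558 and 194 counts in WT and 1 and 0 in KO (adjusted p = 0.0114), and Cxcl11 had 503 and 108 counts against 1 and 0 (adjusted p = 0.0208). Il27 was 20.1-fold lower and Il15 4.36-fold lower. The chemokine genes Ccl3 and Ccl4, which attract monocytes and lymphocytes, fell less, by 3.55-fold and 2.05-fold. The only member that rose was Il16, from 17.6 and 19.7 CPM in WT to 50.3 and 52.5 CPM in KO (1.46, SE 0.12, adjusted p = 0.00619). Ccl2, the main monocyte chemokine, had 321 and 204 CPM in WT and 314 and 164 CPM in KO, with overlapping groups and a log2 fold change of -0.13 (SE 0.38, adjusted p = 0.831). The anti-inflammatory cytokine gene Il10 also overlapped, at 7.91 and 9.44 against 7.90 and 12.3 CPM. The calls of Il12b, Cxcl11, Il27 and Ccl4 were lost without KO library 8, and all of these but Il27 also without KO library 7 (largest adjusted p from 0.0545 to 0.135), while those of Il15, Ccl3 and Il16 held with any 1 library left out.

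Most NF-κB genes fell as well. Of 31 subunits, inhibitors and feedback genes, all tested, 23 fell (74.2%), 1 rose and 7 did not pass, with a median of -1.29. Leaving out 1 library gave 18, 21, 17 or 12 lower members. All 5 genes of NF-κB subunits fell, from Nfkb2 (-2.64) and Relb (-2.01) to Nfkb1 (-1.29), Rel (-1.13) and Rela (-0.60). Nfkbia, which encodes the inhibitor IκBα and is itself induced by NF-κB, had 619 and 693 CPM in WT and 107 and 98.8 CPM in KO (6.36-fold lower, adjusted p = 0.00365). The adhesion molecule gene Icam1 had 1054 and 1052 CPM in WT and 83.9 and 78.3 CPM in KO (13-fold lower, adjusted p = 0.00357), and the costimulatory receptor gene Cd40 152 and 115 against 8.71 and 6.48 CPM (17.5-fold lower, adjusted p = 0.00413). Tnfaip3, the deubiquitinase A20, fell by 6.20-fold. Nfkbia, Icam1, Cd40, Nfkb2, Relb and Tnfaip3 kept their calls with any 1 library left out, whereas Nfkb1 and Rel lost theirs without KO library 8 and Rela in all 4 fits (largest adjusted p 0.102). The genes of the IκB kinase complex, Chuk (-0.15), Ikbkb (-0.31) and Ikbkg (-0.13), did not pass the test. Irak3, a kinase homologue that restrains Toll-like receptor signaling, was the member that rose (0.74, adjusted p = 0.0364), a call lost without WT library 4 or either KO library (largest adjusted p 0.143).

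Upstream of NF-κB, 9 of 24 Toll-like receptor and adaptor genes fell (37.5%, against 8.58% of all genes), 1 (Ripk1) rose and 14 did not pass, with a median of -0.30. The lower members numbered 5, 9, 3 or 2 with 1 library left out. Tlr2, the receptor of bacterial lipopeptides, had 592 and 539 CPM in WT and 58.8 and 80.1 CPM in KO (8.14-fold lower, adjusted p = 0.00496), and its partners Tlr1 (-1.19) and Tlr6 (-0.91) fell too. Among the adaptors and kinases, Irak2 (-1.59), Ripk2 (-1.23), Myd88 (-0.95) and Traf6 (-0.79) fell. Without KO library 8 the calls of Irak2 (adjusted p = 0.0599) and Traf6 were lost, the latter also without KO library 7 (largest adjusted p 0.0677). Those of Tlr1, Tlr6, Myd88 and Cd14 were lost without WT library 3 or either KO library, and that of Ripk1 in all 4 fits, while Tlr2 and Ripk2 kept theirs. The endotoxin receptor gene Tlr4 had 199.8 and 178 CPM in WT and 271 and 251.3 CPM in KO and did not pass (adjusted p = 0.0653), whereas its coreceptor Cd14 fell by 2.77-fold.

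The promoters of 2 of the chemokine genes that fell are shown for the sites that their induction is known to use. They come from RefSeq on GRCm38.p6 and run, 5′ to 3′ on the gene's strand, from 250 bases before to 50 bases after the start. Capitals mark matches on either strand to the κB motif and, in Cxcl10, also to the core of the interferon-stimulated response element (ISRE), searched as GAAANNGAAA. The Cxcl10 promoter lies at chr5:92348840-92349139 (minus strand) and that of Cxcl2 at chr5:90903649-90903948 (plus strand).
Cxcl10: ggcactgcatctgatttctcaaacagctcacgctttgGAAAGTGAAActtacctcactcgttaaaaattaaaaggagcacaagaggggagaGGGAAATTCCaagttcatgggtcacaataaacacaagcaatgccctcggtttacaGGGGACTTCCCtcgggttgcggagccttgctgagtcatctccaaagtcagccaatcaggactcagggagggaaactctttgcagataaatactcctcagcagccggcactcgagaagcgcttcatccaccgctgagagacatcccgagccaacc
Cxcl2: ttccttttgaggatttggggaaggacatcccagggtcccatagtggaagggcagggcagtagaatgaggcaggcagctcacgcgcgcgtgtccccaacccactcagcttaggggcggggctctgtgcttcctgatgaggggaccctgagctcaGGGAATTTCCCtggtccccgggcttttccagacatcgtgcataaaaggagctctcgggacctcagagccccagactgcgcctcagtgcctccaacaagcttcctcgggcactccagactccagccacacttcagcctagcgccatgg
In the Cxcl10 promoter 4 matches were found, some of them overlapping, and in that of Cxcl2 a pair of overlapping matches to the κB motif on opposite strands. A κB motif was present in 14 of 35 promoters (40.0%) of the NF-κB list, which covered 26 of its genes, and in 11 of 33 promoters (33.3%) of 28 cytokine and chemokine genes. It was present in 158 of 1079 promoters (14.6%) of genes lower in KO, 123 of 1086 (11.3%) of genes higher in KO, and 1221 of 11741 (10.4%) of all genes tested that had an entry, which were 9180 genes. Among all 32851 promoters of the table the share was 8.46%. A match describes letters in the window and is no evidence of binding.

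Most interferon-stimulated genes fell. All 44 were tested and had a log2 fold change below 0, 37 of them fell (84.1%) and 7 did not pass the test, with a median of -1.98. This count rested on the KO libraries: with 1 library left out, 31, 42, 5 or 2 members were lower, and without the filter on low counts 19. Ifit1, which binds foreign RNA, had 868 and 451 CPM in WT and 73.3 and 53.4 CPM in KO (10.4-fold lower, adjusted p = 0.0128). The ubiquitin-like modifier gene Isg15 had 186 and 107 CPM in WT and 16.5 and 15.2 CPM in KO (9.26-fold lower, adjusted p = 0.00857), and Gbp3 299 and 176 against 14.2 and 10.3 CPM (19.3-fold lower, adjusted p = 0.00673). WT library 3 was above WT library 4 in these genes, and both remained far above KO. The WT libraries were closer for Ifi205, with 159.7 and 164 CPM, against 2.11 and 1.16 CPM in KO. The antiviral genes Mx1 (-4.33) and Rsad2 (-3.74) fell as well. Stat2 (-1.34, adjusted p = 0.0772) and Irf7 (-1.70, adjusted p = 0.0997) did not pass, with wide WT replicates at 849 and 323 CPM for Irf7. Without KO library 8, Isg15 (adjusted p = 0.0719) and Gbp3 (adjusted p = 0.0606) lost their calls, and Ifit1, Mx1 and Rsad2 lost theirs without either KO library (largest adjusted p 0.0828, 0.1 and 0.0857). The call of Ifi205 held with any 1 library left out. Families such as Ifit, Gbp, Oas and Ifi20x hold near-identical copies, so the split of reads among their members is uncertain.

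Of the receptors, kinases and factors that carry the interferon signal, 6 of 13 tested fell (46.2%, against 8.58% of all genes), 1 rose and 6 did not pass, with a median of -0.52. Irf1, which is induced by interferon gamma and by NF-κB, had 396 and 428 CPM in WT and 54.3 and 43.3 CPM in KO (8.44-fold lower, adjusted p = 0.00365). The kinase genes Jak2 (-1.58) and Tyk2 (-1.36) and the receptor genes Ifngr1 (-1.0) and Ifngr2 (-0.57) fell. The call of Irf1 held with any 1 library left out, and those of Jak2, Tyk2 and Ifngr1 were lost without KO library 8 (largest adjusted p from 0.0683 to 0.0828). That of Ifngr2 was lost in all 4 fits (largest adjusted p 0.142). Irf8, a lineage factor of myeloid cells, rose from 108 and 85.6 to 168 and 159 CPM (0.75, adjusted p = 0.032), a call lost without WT library 4 or either KO library (largest adjusted p 0.113). Ifnb1, the gene of interferon beta, was near the detection limit, at 1.05 and 0.338 CPM in WT and 0.048 and 0.0943 CPM in KO, and did not pass the test (adjusted p = 0.0516).

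The promoter of Ifit1 (chr19:34640639-34640938, plus strand, GRCm38.p6, RefSeq) is shown because it carries the element after which these genes are known, with its 2 matches to the ISRE core in capitals, both read on the opposite strand.
Ifit1: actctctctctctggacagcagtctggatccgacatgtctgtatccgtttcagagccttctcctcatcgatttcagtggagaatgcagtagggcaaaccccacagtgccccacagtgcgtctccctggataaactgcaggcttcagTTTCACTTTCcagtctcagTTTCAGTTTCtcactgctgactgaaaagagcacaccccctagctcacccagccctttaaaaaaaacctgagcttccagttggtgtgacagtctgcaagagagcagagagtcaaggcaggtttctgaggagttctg
The ISRE core was found in 24 of 39 promoters (61.5%) of the 32 interferon-stimulated genes that had an entry. The share was 8.25% (89 of 1079) among promoters of genes lower in KO, 2.85% (31 of 1086) among those of genes higher in KO and 3.28% among those of all genes tested, and it was 3.44% over the whole table.

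Most antigen presentation genes fell, with the largest changes in those of MHC class II. Of 23 genes tested, 15 fell (65.2%), none rose and 8 did not pass, with a median of -1.35. With 1 library left out, 7, 17, 2 or 1 members were lower. Ciita, the master coactivator of MHC class II genes, had 19.5 and 17.2 CPM in WT and 0.264 and 0.0707 CPM in KO (108-fold lower, adjusted p = 0.00496). Cd74, the invariant chain, had 405 and 85.6 CPM in WT and 5.40 and 3.58 CPM in KO (54.5-fold lower, adjusted p = 0.0219), and H2-Ab1 108 and 25.5 against 4.18 and 2.24 CPM (20.8-fold lower, adjusted p = 0.0308). The WT libraries differed more than 4-fold in Cd74 and H2-Ab1 but hardly in Ciita, and the call of Ciita held with any 1 library left out. Those of Cd74 and H2-Ab1 were lost without KO library 7 or 8 (largest adjusted p 0.127 and 0.16). The costimulatory genes Cd80 (-1.12) and Cd83 (-2.06) and the immunoproteasome genes Psmb9 (-1.49) and Psmb10 (-1.74) fell, and all 4 lost their calls without KO library 8 (largest adjusted p from 0.0559 to 0.162). Of the MHC class I genes, H2-K1 (-0.64, adjusted p = 0.166), H2-D1 (-0.23) and B2m (-0.22) did not pass, and reads may be shared among the H2 genes.

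Several effector enzymes of activated macrophages fell. In the list of itaconate, nitric oxide, NADPH oxidase and NRF2 genes, 9 of 22 fell (40.9%, against 8.58% of all genes), 1 rose and 12 did not pass, with a median of -0.70. The fits without 1 library called 7, 8, 5 or 2 of them lower. Acod1, the enzyme that makes itaconate, had 3100.2 and 1641 CPM in WT and 106 and 49.4 CPM in KO (30.6-fold lower, adjusted p = 0.013). Nos2, the inducible nitric oxide synthase, had 43.8 and 15 CPM in WT and 2.06 and 1.11 CPM in KO (18.5-fold lower, adjusted p = 0.0221), and Gpr84, a receptor for medium-chain fatty acids, 249 and 216 against 8.09 and 12.4 CPM (22.7-fold lower, adjusted p = 0.00415). Nox1 (-2.82) and Cybb (-1.70), catalytic subunits of NADPH oxidases, fell, and Rac2, a GTPase that activates the phagocyte oxidase, rose (1.00). Nfe2l2, the gene of NRF2, fell by 2.33-fold, while its targets Hmox1 (0.21) and Nqo1 (0.35) did not pass. The calls of Acod1 (adjusted p = 0.0637) and Nfe2l2 (adjusted p = 0.0672) were lost without KO library 8, that of Acod1 also without the filter. Nos2 lost its call without either KO library (largest adjusted p 0.119), Cybb without either WT library or KO library 8, and Rac2 in all 4 fits, and those of Gpr84 and Nox1 held with any 1 library left out.

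Genes of lipid mediators changed in both directions. Ptgs2, the inducible cyclooxygenase, had 172 and 167 CPM in WT and 19.2 and 11.7 CPM in KO (11-fold lower, adjusted p = 0.00639), and the prostaglandin E synthase gene Ptges 41.8 and 36.7 against 7.06 and 4.86 CPM (6.59-fold lower, adjusted p = 0.00619). The receptor gene Ptger2, in contrast, rose from 4.13 and 3.35 CPM to 20.4 and 18.8 CPM (2.38, SE 0.17, adjusted p = 0.00534), and so did Pla2g7 (1.64), whose call was lost without either KO library (largest adjusted p 0.0613). The groups of Ptgs2, Ptges and Ptger2 were far apart, and their calls held with any 1 library left out. Over the list of 17 genes, 3 fell and 3 rose (17.6% each, against 8.58% and 7.72% of all genes) and 11 did not pass, and the median was -0.01.

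**Figure D3:**
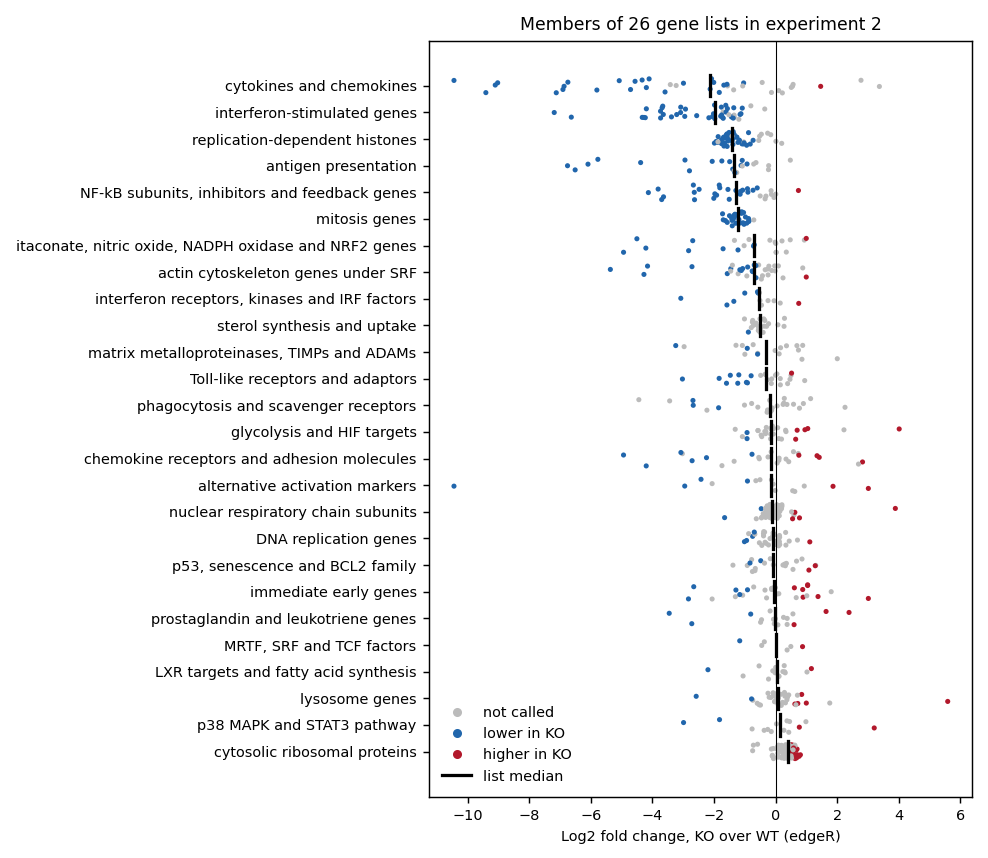
Each point is the edgeR log2 fold change, KO over WT, of 1 tested member of a gene list, with the 26 lists ordered by their median, drawn as a black bar; blue members fell, red members rose and grey members did not pass an adjusted p of 0.05. The interferon-stimulated genes and the mitosis genes lie wholly below 0, whereas the cytosolic ribosomal proteins have the highest median, 0.39.

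Among the MRTF and SRF factors themselves only Mkl1 fell. Elk3, a ternary complex factor that competes with MRTFs for SRF, rose from 27.0 and 27.5 CPM in WT to 56.4 and 43.6 CPM in KO (0.87, SE 0.15, adjusted p = 0.025), a call that was lost with any 1 library left out (largest adjusted p 0.0849). Srf had 40.6 and 40.9 CPM in WT and 32.5 and 27.2 CPM in KO (-0.45, adjusted p = 0.0715), and Mkl2, the paralog of Mkl1, 36.8 and 47.4 against 62.4 and 56.3 CPM (0.49, adjusted p = 0.0887). Neither passed the test, and the median of the 6 factors tested was 0.00.

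Of 33 tested actin cytoskeleton genes that SRF is known to control, 15 fell (45.5%, against 8.58% of all genes), 1 rose and 17 did not pass, with a median of -0.69. Only 5, 7, 7 or 1 of them were called lower with 1 library left out. Actb, the beta-actin gene, had 13294 and 11148 CPM in WT and 6260.0 and 5383 CPM in KO (2.10-fold lower, adjusted p = 0.0291). Cnn2, a calponin that binds actin filaments, had 37.9 and 48.1 CPM in WT and 3.19 and 1.25 CPM in KO (19.3-fold lower, adjusted p = 0.0118), and the fibronectin receptor subunit gene Itga5 184 and 185 against 91.5 and 79.2 CPM (2.16-fold lower, adjusted p = 0.0112). KO library 8 was the lowest for each of them, and without it the calls of Itga5 (adjusted p = 0.0619) and Actb were lost, the latter in all 4 fits (largest adjusted p 0.133), as was that of Cnn2 without the filter on low counts. Actg1 (-1.45), the vinculin gene Vcl (-0.64), the severing protein gene Gsn (-0.91), Myl12a (-0.75), Wdr1 (-0.76), Pfn1 (-0.64) and Tpm4 (-1.16) fell, and all 7 lost their calls without KO library 8 and in at least 1 other of the 4 fits (largest adjusted p from 0.0795 to 0.171). The smooth muscle type genes of the list were barely expressed: Acta2 had 5.29 and 6.51 CPM in WT and 1.94 and 2.03 CPM in KO, Tagln 1.74 and 2.62 against 0.24 and 0 CPM, and Myl9 24 and 21 counts in WT against 1 and 0 in KO. Smooth muscle markers summed to 6.34 and 8.18 CPM in WT and 3.22 and 2.7 CPM in KO, and their part in these values was not tested. Myh9 (-0.01), Zyx (-0.03) and Flna (-0.24) did not pass, and Pdlim7 rose (1.00), a call lost in all 4 fits without 1 library (largest adjusted p 0.126). A CArG box, the site of SRF, was found in 5 of 33 promoters (15.2%) of 28 of these genes, and in 1.58% of promoters of genes lower in KO, 1.20% of those higher in KO and 1.25% of all genes tested.

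Immediate early genes moved in both directions. Of 28 tested, 5 fell (17.9%), 7 rose (25.0%, against 8.58% and 7.72% of all genes) and 16 did not pass, with a median of -0.06. Klf4, a factor of macrophage differentiation and alternative activation, rose from 3.73 and 4.20 CPM in WT to 27.8 and 36.1 CPM in KO (3.01, SE 0.19, adjusted p = 0.00461), and Fosl2 from 17.5 and 17 to 46.8 and 42.7 CPM (1.38, SE 0.11, adjusted p = 0.00668). Maff fell from 11.6 and 13.5 CPM to 2.30 and 1.67 CPM (-2.66, SE 0.23, adjusted p = 0.00709). All 3 calls held with any 1 library left out. Junb (-1.29) and the phosphatase gene Dusp2 (-2.83) fell, and Klf10 (1.04), Jun (0.88), Jund (0.61) and Atf3 (0.89) rose, and all 6 lost their calls without KO library 8, Jun and Jund also in the other 3 fits (largest adjusted p from 0.0558 to 0.137). The classical SRF targets Fos (-0.34, adjusted p = 0.178) and Egr1 (-0.13, adjusted p = 0.925) did not pass, and Egr1 reached no more than 1.5 CPM in a library.

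The study also addressed p38 mitogen-activated protein kinase, STAT3, matrix proteases and senescence. Mapk14, the gene of p38α, had 171 and 158 CPM in WT and 131 and 124 CPM in KO (-0.37, SE 0.11, adjusted p = 0.0848), and Stat3 139.6 and 107 against 177 and 155 CPM (0.43, SE 0.17, adjusted p = 0.145). Neither passed the test. Mapkapk2, the kinase activated by p38, fell from 796 and 630.3 CPM to 204 and 199 CPM (3.53-fold, adjusted p = 0.00768), and the STAT3 target Socs3 from 217 and 246 to 43.4 and 14.9 CPM (7.93-fold, adjusted p = 0.0275). The receptor gene Il6ra rose (0.77), as did Mapk12 (3.20), which stayed at or below 1.39 CPM. Without KO library 8 the call of Mapkapk2 was lost (adjusted p = 0.0613), those of Il6ra and Mapk12 too (largest adjusted p 0.116 and 0.075), and without either WT library, or without the filter, that of Socs3 (largest adjusted p 0.151). In all, 2 of 14 pathway genes fell and 2 rose (14.3% each, against 8.58% and 7.72% of all genes), with a median of 0.15.

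Mmp14, a membrane-bound matrix metalloproteinase, had 151 and 134 CPM in WT and 24.7 and 5.35 CPM in KO (9.46-fold lower, adjusted p = 0.0442). The KO libraries differed by more than 4-fold, and the call was lost without either WT library (largest adjusted p 0.218) and without the filter. Adam17, the protease that sheds tumor necrosis factor, fell from 868 and 765 CPM to 459 and 405 CPM (-0.92, adjusted p = 0.0223), and Plaur, the urokinase receptor, by 1.5-fold. Mmp2 was near absent, at 0.483 and 0.564 CPM in WT and 1.03 and 0.141 CPM in KO with overlapping groups. These 3 were the members that fell out of 18 proteases and inhibitors (16.7%, against 8.58% of all genes), and none rose (median -0.30, or -0.85 without KO library 7, 0.065 without WT library 4 and 0.050 without KO library 8). The calls of Adam17 and Plaur were lost without KO library 7 or 8, among others (largest adjusted p 0.105 and 0.167), and that of Plaur also with upper-quartile scaling. Of the senescence genes, Cdkn1a, the gene of p21, had 216 and 183 CPM in WT and 139 and 111 CPM in KO and just missed the threshold (adjusted p = 0.0514). Cdkn2a stayed at or below 1.21 CPM (adjusted p = 0.224), and Trp53 had 53.3 and 50.9 against 36.1 and 45.0 CPM (adjusted p = 0.136). Among 21 genes of p53, senescence and the BCL2 family, 2 fell and 2 rose, or 9.52% each, against 8.58% and 7.72% of all genes. Pmaip1 (-0.83) and Bid (-0.48), which promote apoptosis, fell, and Bcl2 (1.08), which opposes it, and Sesn2 (1.29), induced under stress, rose, with a median of -0.08 over the list. All 4 calls were lost without KO library 8 (largest adjusted p from 0.0647 to 0.127).

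Nearly all genes of mitosis fell. Of 28 mitosis genes, all with a log2 fold change below 0, 27 fell (96.4%, against 8.58% of all genes) and only Ttk (-0.71, adjusted p = 0.0713) did not pass, with a median of -1.23. With 1 library left out, the lower members numbered 4, 11, 28 or 1. Ccnb1, the cyclin of mitotic entry, had 85.2 and 73.3 CPM in WT and 37.3 and 28.2 CPM in KO (2.42-fold lower, adjusted p = 0.0159). Plk1, a kinase of the mitotic spindle, had 61.7 and 50 CPM in WT and 21.3 and 14.8 CPM in KO (3.09-fold lower, adjusted p = 0.0159), and the proliferation marker Mki67 1019 and 979 against 553 and 349 CPM (2.21-fold lower, adjusted p = 0.0381). In each gene KO library 8 was lowest and KO library 7 next, and the calls of Ccnb1 (adjusted p = 0.0647) and Plk1 (adjusted p = 0.0631) were lost without KO library 8, and that of Mki67 without either WT library as well (largest adjusted p 0.119). Of 33 DNA replication genes 4 fell (12.1%, against 8.58% of all genes), 1 rose and 28 did not pass, with a median of -0.09. Mcm10 (-1.01), Rfc5 (-0.94), Tyms (-0.69) and Rrm1 (-0.75) fell, and the licensing factor gene Cdt1 rose from 13.8 and 16.7 to 34.5 and 31.3 CPM (1.11, adjusted p = 0.0152). Without KO library 8 the calls of Mcm10, Rfc5, Tyms and Cdt1 were lost (largest adjusted p from 0.0677 to 0.135), and that of Rrm1 was lost in all 4 fits. The helicase gene Mcm2 (0.44) and Pcna (0.33) did not pass. The difference between both lists was not tested.

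The promoters of Plk1 (chr7:122159185-122159484, plus strand) and Ccnb2 (chr9:70421505-70421804, minus strand), from RefSeq on GRCm38.p6, are shown because CCAAT boxes, here in capitals, are a known feature of promoters of mitotic genes.
Plk1: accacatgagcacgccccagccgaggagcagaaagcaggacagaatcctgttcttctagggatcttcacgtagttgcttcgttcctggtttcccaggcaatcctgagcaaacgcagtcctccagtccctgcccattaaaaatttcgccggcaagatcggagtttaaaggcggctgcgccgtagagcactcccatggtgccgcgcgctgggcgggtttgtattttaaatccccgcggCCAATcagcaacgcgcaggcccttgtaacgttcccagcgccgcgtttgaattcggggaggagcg
Ccnb2: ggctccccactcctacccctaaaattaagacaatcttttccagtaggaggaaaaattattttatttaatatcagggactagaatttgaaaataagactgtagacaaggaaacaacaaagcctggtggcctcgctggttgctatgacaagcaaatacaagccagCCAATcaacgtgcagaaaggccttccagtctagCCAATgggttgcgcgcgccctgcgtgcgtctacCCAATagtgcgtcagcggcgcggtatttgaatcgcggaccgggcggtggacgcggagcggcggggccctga
Ccnb2 itself fell from 125 and 104 CPM to 43.3 and 27.1 CPM (3.25-fold, adjusted p = 0.0205), a call lost without WT library 3 or KO library 8 (largest adjusted p 0.0737). CCAAT on either strand was found in 22 of 24 promoters (91.7%) of 23 mitosis genes. The share was 38.8% among promoters of all genes lower in KO and 34.3% among those of genes higher in KO. It was 37.7% for all genes tested and 37.4% for all RefSeq genes. A high share was not particular to mitosis genes. Sterol synthesis and uptake genes, with 1 of 23 members called, had CCAAT in 16 of 19 promoters (84.2%).

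Replication-dependent histone genes, which are transcribed in S phase, fell with the mitosis genes. Of 67 listed, 56 were tested, 46 fell (82.1%), none rose and 10 did not pass, with a median of -1.41. Of these, 12, 28, 35 or 6 were called lower with 1 library left out. Hist2h2ac had 76.8 and 68.0 CPM in WT and 25.5 and 19.8 CPM in KO (3.20-fold lower, adjusted p = 0.00834), Hist1h4h 118 and 104 against 48.5 and 37.9 CPM (2.58-fold lower, adjusted p = 0.0124), and the linker histone gene Hist1h1c 213 and 179.6 against 99.0 and 85.4 CPM (2.13-fold lower, adjusted p = 0.0156). The called members fell by between 1.66-fold and 3.96-fold, and the calls of Hist1h4h (adjusted p = 0.0596) and Hist1h1c (adjusted p = 0.0808) were lost without KO library 8. On chromosome 13, where the largest histone cluster lies, 73 of 489 tested genes were lower in KO (14.9%), and 41 of these were histone genes. Most of these transcripts end without a poly(A) tail and the labels name a kit for mRNA, so their counts depend on what passed its selection. Other classes that mostly lack a tail were also measured. Of 36 small nuclear RNA genes tested 4 were lower (11.1%, against 8.58% of all genes) and 1 was higher (2.78%, against 7.72%; median -0.69), and of 67 small nucleolar RNA genes none was called (median -0.0067). The abundant untailed transcripts Rn7sk (-0.09), Rmrp (0.09) and Rpph1 (-0.05) did not pass. The part of this selection in the histone counts was not tested. Many histone genes are near-identical in sequence, and the split among them is uncertain.

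Cytosolic ribosomal protein genes were the list with the highest median, 0.39. Of 82 tested, 20 rose, none fell and 62 did not pass, and 74 had a log2 fold change above 0. The share that rose, 24.4%, stands against 7.72% of all genes, and with any 1 library left out no member was called. Rpl30 had 109.5 and 98.7 CPM in WT and 158 and 179.8 CPM in KO (1.62-fold higher, adjusted p = 0.0265), and Rpl28 152 and 149 against 223 and 235 CPM (1.52-fold higher, adjusted p = 0.028). Called members rose by between 1.42-fold and 1.75-fold. The 4 members of smallest p, Rpl30, Rps28, Rpl28 and Rpl26, then had adjusted p up to 0.111. Reads of this family can be shared with its many pseudogenes. With DESeq2 44 of its members rose, and without the filter on low counts 32. Of 78 nuclear genes of the respiratory chain tested, 2 fell (2.56%), 4 rose (5.13%) and 72 did not pass, with a median of -0.12. Cox6a2, the heart and muscle form of a cytochrome oxidase subunit, rose from 1.23 and 1.10 CPM to 14.1 and 20.5 CPM (3.89, SE 0.26, adjusted p = 0.00498), and Cox7a1 (-1.66) fell, a call lost in all 4 fits without 1 library, while that of Cox6a2 held in each.

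In the list of glycolysis and HIF targets 2 of 30 fell (6.67%, against 8.58% of all genes) and 5 rose (16.7%, against 7.72%), with a median of -0.15. Pfkfb3, the enzyme that makes the allosteric activator of phosphofructokinase, rose from 37.4 and 39.5 CPM to 76.1 and 82.4 CPM (2.06-fold, adjusted p = 0.00928) and Hk2 by 1.62-fold, whereas the phosphofructokinase gene Pfkl fell from 133 and 139.5 to 77.1 and 66.2 CPM and the glucose transporter gene Slc2a1 fell (-0.93). Of 23 genes of sterol synthesis and uptake, 20 had a log2 fold change below 0 (median -0.51, and from -0.82 without WT library 4 to -0.17 without WT library 3), and 1 passed the test. Nr1h3, the gene of LXRα, fell from 116 and 119 CPM to 27.8 and 23.5 CPM (4.58-fold, adjusted p = 0.00413), while its target Abca1 had 472 and 432 against 438 and 411 CPM (adjusted p = 0.665) and Mylip, another target, rose (1.16). The call of Nr1h3 held with any 1 library left out, and those of Mylip, Pfkfb3, Pfkl and Hk2 were lost without KO library 8 (largest adjusted p from 0.0557 to 0.1), as was that of Slc2a1 (0.118). Nr1h3 and Mylip were the only members that passed among 16 LXR and fatty acid genes (6.25% in each direction, median 0.06).

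Of 37 lysosome genes tested, 5 rose (13.5%, against 7.72% of all genes), 2 fell (5.41%, against 8.58%) and 30 did not pass, with a median of 0.09. The glycosidase genes Gaa and Gla rose by 2.00-fold and 1.8-fold, from 68.8 and 68.3 to 128 and 145 CPM and from 215 and 219.6 to 395 and 386 CPM. Both calls were lost without KO library 8 (largest adjusted p 0.0589 and 0.0735). The cholesterol exporter gene Npc1 (0.63) and the protease gene Ctsd (0.72) rose as well, with calls lost in all 4 fits (largest adjusted p 0.174 and 0.201). Mitf, a factor that drives lysosome genes, fell from 164 and 204 to 115 and 99.3 CPM (-0.78, adjusted p = 0.0332), a call lost without WT library 4 or either KO library (largest adjusted p 0.146).

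Surface receptors and adhesion molecules changed in both directions. Of 25 chemokine receptor and adhesion genes tested, 6 fell (24.0%, against 8.58% of all genes), 4 rose (16.0%, against 7.72%) and 15 did not pass, with a median of -0.14. Itgax, the gene of CD11c, fell from 30.3 and 45.8 CPM to 1.56 and 0.92 CPM (30.6-fold, adjusted p = 0.00603), Itga4, a subunit of the receptor for VCAM-1, from 712 and 550.1 to 135 and 132 CPM (4.73-fold, adjusted p = 0.00606), and the fractalkine receptor gene Cx3cr1 from 147 and 63.0 to 7.06 and 4.36 CPM (18.4-fold, adjusted p = 0.0153). Ccrl2 (-3.07) fell as well. Cxcr4, which holds cells in the bone marrow, rose from 24.7 and 33.3 CPM to 241 and 168 CPM (7.07-fold, adjusted p = 0.0078), and Itga6 (1.42) and Itgb5 (0.76) rose too. The call of Itga4 was lost without KO library 8 (adjusted p = 0.0543), those of Cx3cr1 and Itga6 without either KO library (largest adjusted p 0.0886 and 0.104), and that of Itgb5 in all 4 fits, and those of Itgax, Ccrl2 and Cxcr4 held with any 1 library left out. Ccr2, the receptor of CCL2, had 37.2 and 5.78 CPM in WT and 3.53 and 1.74 CPM in KO and did not pass (adjusted p = 0.0959), with WT replicates more than 6-fold apart.

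Phagocytic and scavenger receptors gave 3 falls among 26 genes (11.5%, against 8.58% of all genes) and no rise, with a median of -0.18. Complement C3 fell from 2082 and 1226 CPM to 352 and 166 CPM (6.38-fold, adjusted p = 0.0271), the inhibitory Fc receptor gene Fcgr2b from 249.7 and 155 to 70.4 and 41.9 CPM (3.60-fold, adjusted p = 0.0314), and Axl, a receptor for apoptotic cells, from 427 and 136 to 49.4 and 38.2 CPM (6.42-fold, adjusted p = 0.0406). All 3 calls were lost without KO library 8 (largest adjusted p from 0.0969 to 0.192) and also without the filter. Among 15 tested markers of alternative activation, 4 fell and 2 rose (26.7% and 13.3%, against 8.58% and 7.72% of all genes), with a median of -0.13. The interleukin-4 receptor gene Il4ra rose from 59.7 and 62.0 CPM to 239.5 and 204 CPM (3.64-fold, adjusted p = 0.00534, held with any 1 library left out), Clec7a, the beta-glucan receptor, fell (-2.42; lost without KO library 8, adjusted p = 0.0801), and Mrc1, the mannose receptor, overlapped at 561 and 755 CPM in WT and 939 and 307 CPM in KO. F13a1 stayed at or below 0.751 CPM.

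**Figure D4:**
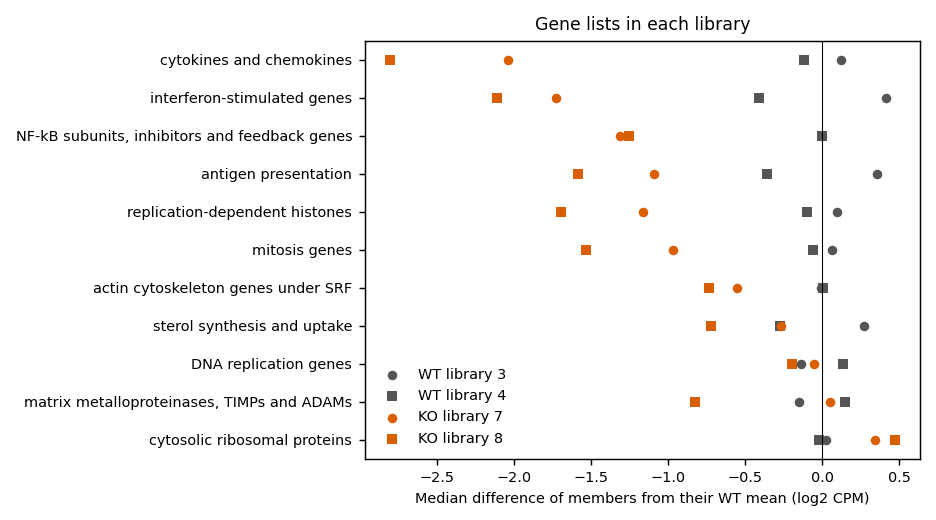
Each symbol is, for 1 library, the median over a list's tested members of the difference in log2 CPM from the members' WT mean; grey symbols are WT libraries 3 and 4, orange symbols KO libraries 7 and 8. Both KO libraries lie to the left of both WT libraries for the first 7 lists and to the right for the ribosomal proteins, KO library 8 lies further left than KO library 7 in most lists, and for sterol synthesis, DNA replication and the matrix proteases the groups are not cleanly apart.

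The effect of the genotype was set against that in experiment 1, which used the same genotypes, dose and times. In a model of all 8 libraries, the interaction of experiment and genotype passed an adjusted p of 0.05 in 5996 of 14418 genes (41.6%). Of the 2375 genes called in experiment 2, 2301 were in that model, and 1807 of them (78.5%) passed, of which 1317 had the opposite sign in experiment 1. These genes were chosen on values that enter the interaction, so their share lies above that of all genes by construction. Interferon-stimulated genes had a median of 1.29 in experiment 1, and 43 of the 44 passed the interaction test. For the histones the median was 1.58 there and 51 members passed, for the ribosomal proteins it was -0.41 with 68, and for antigen presentation 0.74 with 16. The cytokine and NF-κB lists had medians below 0 in both experiments, at -0.37 and -0.57 in experiment 1, and the interaction passed for 24 of 34 and 26 of 31 members. The mitosis genes had a median of 0.21 in experiment 1, and 27 of 28 passed. Mkl1 was lower by 0.38 on the log2 scale in experiment 1, less than in experiment 2 (interaction -0.79, adjusted p = 0.0238). The labels call the experiments separate batches, and batch and experiment cannot be told apart.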

How the data were processed

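Total RNA of 4 libraries was sequenced from TruSeq stranded mRNA libraries. The submitters' processing notes name the build GRCm38, the aligner STAR 2.7.0f, the read counter featureCounts of Subread 1.6.4, and DESeq2 1.22.1, without saying how each was run. The deposited table of experiment 2 holds raw counts per gene, and a second deposited table holds the authors' normalized counts (a signal: counts divided by a size factor per library), which served here only to read those factors. The normalized table of experiment 1 was not used, and its raw counts entered only the interaction model and the distances between groups. Of the sample columns, 0 could not be mapped to a library.

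Genes were kept by the filterByExpr function within experiment 2, scaled by TMM and tested with the edgeR 4.0.16 quasi-likelihood test (R 4.3.3) by genotype, with Benjamini-Hochberg adjustment over 14567 genes and a threshold of 0.05. CPM are TMM-scaled, and a fold change is 2 to the power of its absolute log2 value. Distances used log2 CPM with a prior count of 2. Alternatives were DESeq2 1.42.0, limma-voom (limma 3.58.1), other scalings, filters and thresholds, and each library left out in turn, the last by gene for named genes and for called members of the lists. On simulated counts for 14567 genes, edgeR found 45 of 100 genes changed 2-fold and 83 of 100 changed 4-fold, with 15 false calls.

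Named genes were Mkl1, Apoe and genes the study names, the 12 with the largest called change in each direction at a mean log2 CPM of at least 3 with no pseudogene or clone name, and the 4 of smallest p in each of 26 lists. Further list members were picked as examples after their values were seen. The lists and the comparison itself were chosen with earlier results of these data known. Promoters came from RefSeq (GRCm38.p6) by symbol, without those of chromosome 18.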

Additional observations from a re-analysis of the deposited data

Results flagged for a closer look

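Mkl1, the genes the study names and the 12 genes that changed most in each direction were examined for a difference between the experiments. In 24 of them that were called in experiment 2, the difference between KO and WT was not the same in both experiments by the test of the difference itself (edgeR quasi-likelihood test of the interaction over 8 libraries, adjusted p from 5.27e-05 to 0.0472). Over all 134 genes chosen for naming, list members included, 104 of the 131 that were in this model passed, against 41.6% of all genes. Most of these genes were chosen for their values in experiment 2, which enter the interaction, so that their share lies higher by construction, and the list members are not given one by one. No cause was tested, and the values below are log2 differences, experiment 2 minus experiment 1.

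In 4 of the 24 the log2 fold change was below 0 in both experiments and further from 0 in experiment 2. Mkl1 gave -0.79 (-1.16 in experiment 2 and -0.38 in experiment 1), Il1b -3.51 (-7.12 and -3.62) and Cxcl1 -2.29 (-5.80 and -3.51). The last of the 4, Cxcl10, gave -8.99, with -9.02 in experiment 2 and -0.04 in experiment 1.

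The other 8 of the 24 that fell in experiment 2 had a log2 fold change above 0 in experiment 1. The difference was -9.88 for Gbp5, -12.94 for Lipg, -12.51 for Ciita, -7.30 for Ifi205, -10.93 for H2-Aa, -10.33 for H2-Eb1, -8.60 for Ifit1bl1 and -10.06 for Cd74. In experiment 1 their values ran from 0.66 (Ifi205) to 5.78 (Lipg).

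The 12 of the 24 that rose in experiment 2 had a log2 fold change below 0 in experiment 1. Adgre1 gave 3.01 (0.91 in experiment 2 and -2.10 in experiment 1). The difference was 20.35 for Raver2, 13.15 for Ptprm, 18.47 for Slc13a3, 7.11 for Grb10, 10.45 for Nhs, 12.23 for Cd55, 11.29 for Fcrl5, 8.44 for Morc4, 6.09 for F5, 6.79 for Ndrg1 and 11.71 for Lancl3. Ctse, which also rose among the 12 largest, had 4.46 in experiment 1 and did not pass this test (adjusted p = 0.622). Some genes the study names passed this test without being called in experiment 2. Ccl2 gave 2.71 (adjusted p = 0.00533), with -0.13 in experiment 2 and -2.85 in experiment 1. The others were Mapk14, Cd68, Cdkn2a, Mmp2 and F13a1.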

How the results depend on the processing

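No paired analysis was possible because the WT libraries 3 and 4 and the KO libraries 7 and 8 share no replicate number. Counts of genes lower in KO and genes higher in KO were 2418 and 2481 with the spread estimated over 8 libraries, 137 and 98 at an adjusted p under 0.01, and 805 and 543 with a change of at least 2-fold. They were 1663 and 1541 with DESeq2, whose calls held 2295 of the 2375 reported ones, 1249 and 1088 with limma-voom, 1176 and 1287 with upper-quartile scaling, and 1566 and 1533 without the filter. With 1 library left out they ran from 114 to 865 lower and from 124 to 564 higher, and without KO library 8 the 238 calls held 229 of the reported ones. No named gene changed sign while called.

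Of the list medians, upper-quartile scaling moved NF-κB to -1.24, interferon receptors to -0.47, MRTF and SRF factors to 0.052, immediate early genes to -0.0093, lysosome genes to 0.13 and the respiratory chain to -0.077. At 10 counts in every library the actin list moved to -0.59, the p38 and STAT3 list to 0.029 and the p53 list to 0.083. Without the filter the p38 list moved to 0.026 and alternative activation to -0.58, and limma-voom gave -0.28 for the latter and 0.081 for prostaglandins. With 1 library left out, medians ran from -2.94 to -2.04 (cytokines), -1.40 to -1.17 (NF-κB), -0.60 to -0.13 (Toll-like receptors), -2.29 to -1.46 (interferon-stimulated), -0.61 to -0.50 (interferon receptors), -0.060 to 0.014 (MRTF and SRF factors), -0.75 to -0.56 (actin), -0.11 to 0.017 (immediate early), 0.052 to 0.19 (p38 and STAT3), -0.66 to -0.025 (alternative activation), -0.58 to 0.13 (phagocytosis), -0.57 to -0.20 (chemokine receptors), -0.74 to -0.50 (itaconate and oxidase), -0.11 to 0.23 (prostaglandins), -0.85 to 0.065 (matrix proteases), -0.82 to -0.17 (sterol), -0.11 to 0.35 (LXR), -0.25 to -0.026 (glycolysis), -0.25 to -0.027 (DNA replication), -1.54 to -0.97 (mitosis), -0.28 to 0.033 (p53), -0.13 to -0.052 (respiratory chain), 0.34 to 0.47 (ribosomal) and -1.73 to -1.17 (histones). The cause of these moves was not tested. With 2 libraries a group and the simulated recovery given above, a gene that did not pass may still differ by 2-fold.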

Other observations

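A group of genes of amino acid synthesis and the ATF4 stress response was put together after its values were seen, so its counts are a description. Of 30 genes 29 were tested, of which 11 rose (37.9%, against 7.72% of all genes) and none fell, with a median of 0.68. All had a log2 fold change above 0, but some lay near it with overlapping groups, such as Mthfd2 (0.0091) and Slc7a3 (0.014). Trib3, a pseudokinase induced under stress, had 8.93 and 12.1 CPM in WT and 49.0 and 119.5 CPM in KO (3.00, adjusted p = 0.023). Ddit3, the gene of CHOP, had 38.4 and 40.0 CPM in WT and 91.2 and 143 CPM in KO (1.58, adjusted p = 0.0191). Both calls were lost without either WT library (largest adjusted p 0.157 and 0.0817). Atf4 itself (0.39, adjusted p = 0.212) and the asparagine synthetase gene Asns (1.02, adjusted p = 0.082) did not pass. The members' median difference from WT was 0.32 in KO library 7 and 1.09 in KO library 8.

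A pair of rises, also picked after their values were seen, came close to a present or absent pattern with little spread between replicates. Rpl3-ps1, a pseudogene of a ribosomal protein gene on chromosome X, had 3 and 1 counts in WT and 1199 and 1357 counts in KO (adjusted p = 0.00321), while its parent Rpl3 did not pass (0.13, adjusted p = 0.564). Kif21a is a kinesin gene at chr15:90933276-91049948, on the chromosome of Mkl1. It had 0.188 and 0.197 CPM in WT and 9.82 and 9.08 CPM in KO (5.59, adjusted p = 0.00357). In experiment 1 the log2 fold changes of Rpl3-ps1 and Kif21a were 7.39 and 4.75. Neither gene passed the edgeR test of the interaction (adjusted p = 0.181 and 0.217).

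Replicates of a genotype stood far apart in some genes, here picked after their values were seen. Between WT libraries 3 and 4, the neuropeptide gene Npy had 0.322 and 160.3 CPM, the desaturase gene Scd1 50.9 and 6.62 CPM, the scavenger receptor gene Marco 61.7 and 10.9 CPM and the elastase gene Mmp12 186 and 585 CPM. Between KO libraries 7 and 8, Ccl5 had 8.30 and 0.967 CPM, the acute phase gene Saa3 448 and 68.1 CPM, the siderophore-binding protein gene Lcn2 30.9 and 135 CPM, and Ly6a, the gene of Sca-1, 54.9 and 9.60 CPM. Ccl5, whose WT libraries had 65.5 and 33.5 CPM, did not pass the test (adjusted p = 0.0753).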
